A study of Mus musculus with 31 samples.

Results

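The 8 genes that encode transcription factors of the nephron, Hnf4a, Pax2, Pax8, Lhx1, Emx1, Tfcp2l1, Gata3 and Esrrb, were followed across 31 mouse kidneys profiled by RNA sequencing. They were chosen by gene symbol, and all 8 were present among the 23509 genes counted and passed the filter on low counts that left 15185 genes for testing. Pcy/CD1 mice carry the recessive pcy mutation in every cell, on a CD1 background, and develop slowly progressing polycystic kidney disease. One group of 12 Pcy/CD1 mice received PBS, and another of 14 received RGLS4326, an oligonucleotide that inhibits the microRNA miR-17, at 25 mg/kg once a month. Dosing began at 5 weeks of age and ran for 25 weeks, and kidneys were taken at 30 weeks. The PBS injections are given as weekly in one label and in the study's description and as monthly in another label, so the schedule may differ between PBS and RGLS4326. The 5 wild-type CD1 mice received no injection, so that injection and the pcy mutation cannot be told apart in comparisons with wild type. The study describes both the wild-type and the Pcy/CD1 mice as male. CD1 is an outbred stock, and nothing in the labels links any wild-type mouse to a Pcy littermate.

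Nephron epithelium is built and kept by transcription factors that are restricted to segments. Pax2, Pax8 and Lhx1 act when the embryonic kidney forms its first epithelial vesicles and the ureteric tree. Hnf4a is a nuclear receptor family member that maintains the gene programme of the proximal tubule, the segment that reabsorbs most filtered solutes, whereas Gata3 and Tfcp2l1 belong to the ureteric bud and collecting duct. Polycystic kidneys lose functional tubule as cysts expand, and in whole kidney RNA fewer cells of a type and less RNA per cell cannot be told apart.

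RGLS4326 is directed at the microRNAs of the miR-17 family, which recognise messages through a shared seed, bases 2 to 8 of the mature strand. Mature sequences from RefSeq (GRCm38.p6) are shown because the seed is what a transcription factor message would have to match. Capitals mark the seed, which was AAAGUGC in all 6 family members found.
mmu-miR-17-5p: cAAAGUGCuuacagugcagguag
mmu-miR-20a-5p: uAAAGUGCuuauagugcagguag
mmu-miR-93-5p: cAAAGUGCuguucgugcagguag
mmu-miR-106b-5p: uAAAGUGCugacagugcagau

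The match to the whole seed, GCACTTT, was searched on the sense strand of the longest annotated 3′ UTR of each gene (GRCm38, GENCODE vM21). It occurred in 0 of the 8 transcription factors and in 14.47% of the 13840 tested genes with a 3′ UTR. The shorter core CACTTT, which lies within GCACTTT, occurred in Pax2, Tfcp2l1, Gata3 and Esrrb, compared with 42.09% of those genes. Esrrb held 3 copies and the others 1 each. The sites of the genes with 1 copy are printed to show which base precedes the core, with the core in capitals, and each lies in the last exon.
Gata3, chr2:9857281-9857286, minus strand, exon 6 of 6: gtctttttcgtCACTTTtcttgcagcct
Pax2, chr19:44836769-44836774, plus strand, exon 11 of 11: tgctggcctctCACTTTtccctcctgtg
Tfcp2l1, chr1:118678842-118678847, plus strand, exon 15 of 15: gttgaattgttCACTTTttttgtttgtt
In all of them the base before the core was T, not the G of the whole match. These letters describe the annotated 3′ UTR alone and say nothing of whether a microRNA binds there.

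Each kidney gave 14892524 to 27459962 reads counted on genes, and values are given as CPM, counts scaled to library size after trimmed-mean normalisation. Called means an adjusted p under 0.05 by edgeR (quasi-likelihood fit, Benjamini-Hochberg adjustment over all tested genes). The kidney origin of the samples was seen in summed proximal tubule markers, at 22002 to 24892 CPM in wild type, and no gene of the 10 marker lists that had a row stood at 0 throughout a group. RGLS4326 mouse 9 stood apart from its group. Its Lcn2, a secreted protein made by injured tubules, was 2.76 CPM, within the wild-type span of 0.944 to 11.2 CPM, while PBS mice reached 205 to 1205 CPM. Treatment differences are therefore also given without that mouse where it matters. Ratios to marker sums are given over all treated mice, with its value where it was the extreme. No pair of wild-type mice was closer than mice 3 and 4, with a chi-square of 2.685 per gene over 11830 genes, compared with 15.9 for the next wild-type pair. The difference exceeds sampling noise, so they were counted separately, but whether they are separate animals is not known beyond their labels. Counted as 1 sample, an alternative chosen after the data were seen, they left 5, 2 and 4 of the 8 genes called in the comparisons below in place of 6, 2 and 5, without Pax2 in PBS and without Esrrb in RGLS4326 mice against wild type. An index series is a run of library numbers that restarts within a group. There were 3, each holding mice of all groups.

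Levels of the 8 were compared with each other per kilobase of annotated exon. In wild type the order of mean level was Hnf4a at 227 CPM per kb, Tfcp2l1 at 51.0, Emx1 at 19.3, Pax8 at 18.2, Pax2 at 6.16, Esrrb at 5.95, Lhx1 at 4.17 and Gata3 at 3.46 CPM per kb. Emx1 exceeded Pax8 in 3 of 5 wild-type mice and Pax2 exceeded Esrrb in 2 of 5, so neither pair of neighbours differed beyond its spread. Lhx1 exceeded Gata3 in 5 of 5 mice, although the ranges of the groups of values overlapped. In PBS mice Gata3 stood above Pax2, at 8.90 CPM per kb, and Lhx1 stood last, at 2.70 CPM per kb. Gata3 exceeded Pax2 in 10 of 12 PBS mice and Pax8 exceeded Emx1 in 11 of 12, and the ranges of both pairs overlapped. In RGLS4326 mice Gata3 was at 7.08 and Lhx1 at 3.09 CPM per kb, and Gata3 exceeded Pax2 in 9 of 14.

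Disease split the genes by direction. In Pcy kidneys given PBS, Gata3, Pax2 and Pax8 were higher than in wild type, Hnf4a, Lhx1 and Esrrb were lower, and Emx1 and Tfcp2l1 were not called. Of all tested genes, 37.7% were called higher and 36.6% lower, 74.3% in either direction, so the 6 of 8 called here stood near the background. With the study's size threshold, an absolute log2 fold change over 0.5, Hnf4a, Lhx1 and Gata3 were called, 3 of 8, compared with 42.4% of all genes. The median log2 fold change of the 8 was -0.056, and that of all genes 0.0102.

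After RGLS4326, Hnf4a was higher and Gata3 lower than after PBS, and the other 6 genes were not called. The background here was 9.15% called higher and 6.66% lower, 15.8% in either direction. Neither of the 2 called genes passed the size threshold, which 2.15% of all genes did. Compared with wild type, the treated kidneys kept Pax8 and Gata3 higher and Hnf4a, Lhx1 and Esrrb lower, 5 of 8, compared with 32.5% of all genes higher, 32.4% lower and 64.9% in either direction. Gata3 passed the size threshold in that comparison, compared with 31.5% of all genes. Hnf4a, close to it, passed as well without mouse 9 (-0.53). Over fits that left out 1 mouse Hnf4a ran from -0.53 to -0.46, and leaving out other single mice, such as treated mouse 6 or 8, also took it past the threshold. The comparisons share groups of mice and are therefore set side by side without a test between them.

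**Figure D1:**
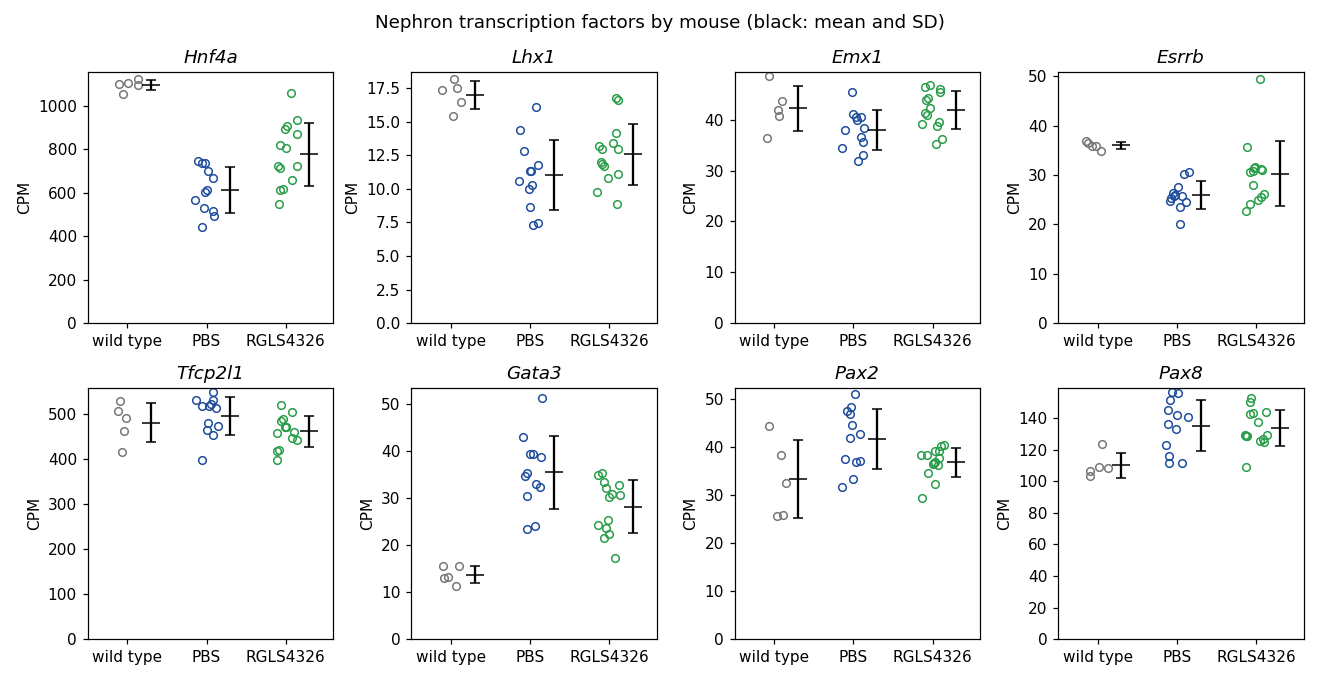
CPM (vertical axes, from 0) of the 8 transcription factors in every mouse, with 5 wild-type, 12 PBS and 14 RGLS4326 mice per panel and the mean and SD in black. Hnf4a and Esrrb in PBS mice lie wholly below wild type, Gata3 in both Pcy groups lies wholly above it, and a single RGLS4326 mouse reaches 49.4 CPM for Esrrb.

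Hnf4a (chr2:163506808-163572910, plus strand, GRCm38) was the most abundant of the 8. It measured 1103, 1121, 1101, 1095 and 1054 CPM in the wild-type mice, a mean of 1095 ± 24.6 (SD, n = 5). PBS mice ran from 442 through a median of 608 to 744 CPM, with a mean of 611 ± 104 (SD, n = 12). RGLS4326 mice ran from 547 through 766 to 1057 CPM, with a mean of 777 ± 145 (SD, n = 14). All 12 PBS mice lay below every wild-type mouse, 7 of 14 treated mice lay above every PBS mouse, and 13 of 14 treated mice still lay below every wild-type mouse.

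The log2 fold change of Hnf4a was -0.84 (SE 0.12, edgeR adjusted p = 4.95e-07) for PBS against wild type and 0.35 (SE 0.093, adjusted p = 0.0213) for RGLS4326 against PBS. Against wild type, treated mice differed by -0.50 (SE 0.12, adjusted p = 0.000700). Without mouse 9 the treatment difference was 0.30 (adjusted p = 0.0354).

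Proximal tubule markers were measured beside Hnf4a. Their sum ran from 5872 to 12042 CPM in PBS mice, and from 8044 to 14018 CPM in the treated mice other than mouse 9, which reached 22388 CPM. Of the 10 markers 10 were called lower in PBS than in wild type, and 4 were called higher after RGLS4326, where the shares over all genes were 36.6% lower and 9.15% higher. Without mouse 9, 1 was called higher after RGLS4326, and the share of all genes called higher was 4.66%. Hnf4a divided by that sum, on the log2 scale, gave -4.39 ± 0.052 in the wild-type group (SD, n = 5). It gave -3.84 ± 0.19 in PBS mice (SD, n = 12) and -3.89 ± 0.18 in RGLS4326 mice (SD, n = 14), the lowest of them mouse 9 at -4.40. Relative to the proximal markers, then, Hnf4a was higher in both Pcy groups than in wild type, although its own CPM was lower. The part of proximal tubule content in the change of Hnf4a was not tested.

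Lhx1 (chr11:84518284-84525535, minus strand), a LIM homeodomain factor required for early kidney patterning, measured 17.4, 18.2, 17.5, 15.4 and 16.4 CPM in wild type. Values in PBS mice spanned 7.34 through 10.96 to 16.1 CPM, and RGLS4326 mice ran from 8.84 through 12.5 to 16.7 CPM. Of the PBS mice 11 of 12 lay below every wild-type mouse, as did 12 of 14 treated mice. Its log2 fold change was -0.63 (SE 0.14, edgeR adjusted p = 0.000203) for PBS against wild type and -0.43 (SE 0.14, adjusted p = 0.00709) for RGLS4326 against wild type. Between the Pcy groups the difference, 0.19 (SE 0.11, adjusted p = 0.181), was not called.

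Esrrb (chr12:86361117-86521628, plus strand), a nuclear receptor without a known hormone and best known from pluripotent stem cells, was nearly constant in wild type, at 36.9, 35.9, 35.9, 36.5 and 34.9 CPM. PBS mice ran from 20.1 through 25.8 to 30.5 CPM and did not overlap wild type. RGLS4326 mice ran from 22.6 through 30.7 to 49.4 CPM, the last in mouse 9, above the wild-type range. Against wild type Esrrb fell by 0.48 on the log2 scale in PBS mice (SE 0.11, edgeR adjusted p = 0.000393).

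Treated mice stood between these groups for Esrrb, at 0.22 above PBS (SE 0.085, adjusted p = 0.0633), which was not called, and -0.25 against wild type (SE 0.11, adjusted p = 0.0466). This second call was lost in 17 of 19 fits that left out 1 mouse. Without mouse 9 it was kept, at -0.32 (adjusted p = 0.00117), and the difference from PBS was 0.15 (adjusted p = 0.106). Summed thick ascending limb markers ran from 7475 to 9791 CPM in wild type, from 5125 to 7743 CPM with PBS and from 6231 to 8809 CPM with RGLS4326. Esrrb over that sum averaged -7.88 ± 0.11 in wild type (n = 5), -7.97 ± 0.13 in PBS mice (n = 12) and -7.90 ± 0.18 in RGLS4326 mice (n = 14) on the log2 scale, each ± SD, closer together than their SDs. Mouse 9 had the highest treated value, -7.41. Whether the lower Esrrb came with that segment was not tested further.

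Gata3 (chr2:9857078-9890034, minus strand), a zinc finger factor of the ureteric bud and collecting duct that is also used by type 2 helper T cells and innate lymphoid cells, had the largest disease change of the 8. Wild-type mice measured 11.3, 15.6, 13.3, 13.1 and 15.7 CPM, a mean of 13.8 ± 1.86 (SD, n = 5). PBS mice ran from 23.5 through 35.0 to 51.3 CPM, with a mean of 35.4 ± 7.79 (SD, n = 12). RGLS4326 mice ran from 17.3 through 30.4 to 35.3 CPM, with a mean of 28.2 ± 5.65 (SD, n = 14). Neither Pcy group overlapped wild type, and 13 of 14 treated mice lay below the PBS median.

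The log2 fold change of Gata3 was 1.37 (SE 0.17, edgeR adjusted p = 4.18e-08) for PBS against wild type and 1.03 (SE 0.16, adjusted p = 4.40e-06) for RGLS4326 against wild type. Between the Pcy groups it was -0.33 (SE 0.11, adjusted p = 0.0421), and this call did not hold throughout. It was lost in 12 of 26 fits that left out 1 mouse, with adjusted p up to 0.0989, and without mouse 9 the value was -0.29 (adjusted p = 0.0684).

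Markers of principal cells and of lymphoid cells were measured beside Gata3, not those of every cell type that may express it. Summed principal cell markers ran from 495 to 932 CPM in wild type, from 1290 to 2854 CPM with PBS and from 871 to 1885 CPM with RGLS4326, where the lowest was mouse 9 and the next 1199 CPM. Of those 7 genes 6 were called higher in PBS than in wild type and 1 lower, Aqp4, another water channel, at a log2 fold change of -0.74 (edgeR adjusted p = 0.00544), which is named after its value was seen. After RGLS4326 5 were called lower than after PBS. Among all tested genes 37.7% were higher and 36.6% lower in the first comparison and 6.66% lower in the second. Aqp2, the vasopressin-regulated water channel, had a log2 fold change of 2.30 (adjusted p = 1.03e-08) with disease and -0.56 (adjusted p = 0.0265) with treatment. The same 5 of 7 markers were called lower without mouse 9, compared with 3.48% of all genes. Gata3 over the principal cell sum averaged -5.56 ± 0.31 in wild type (n = 5), -5.82 ± 0.18 in PBS mice (n = 12) and -5.67 ± 0.21 in RGLS4326 mice (n = 14), on the log2 scale and with SDs.

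Summed T cell and innate lymphoid markers, 7 genes, ran from 3.86 to 7.41 CPM in wild type, from 28.3 to 39.3 CPM with PBS and from 26.4 to 36.9 CPM with RGLS4326 other than mouse 9, which stood at 6.44 CPM. All 7 were called higher in PBS than in wild type and 0 were called after treatment, by edgeR, compared with 37.7% of all genes higher and 15.8% called in either direction. Cd8a, a coreceptor of cytotoxic T cells, had a log2 fold change of 3.28 with disease (adjusted p = 4.04e-08) and -0.091 with treatment (adjusted p = 0.777). Gata3 over this sum averaged 1.29 ± 0.46 in wild type (n = 5), -0.00044 ± 0.39 in PBS mice (n = 12) and -0.019 ± 0.51 in RGLS4326 mice (n = 14), as log2 values with SDs. Mouse 9 had the highest treated value, 1.42. The part of either cell type, or of any other, in Gata3 was not tested. Another limit is that the Gata3 locus holds 9230102O04Rik on the same strand, with overlapping exons, and 4930412O13Rik on the other strand, without exon overlap. Their own log2 fold changes were 1.44 and 1.30 for PBS against wild type (edgeR adjusted p = 2.56e-08 and 1.46e-07), and how the counting divided reads over the shared exons is not known.

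Pax2 (chr19:44756045-44837871, plus strand), a paired box factor of the embryonic kidney and of the collecting duct, measured 32.5, 44.4, 25.9, 25.7 and 38.2 CPM in wild type, the widest relative spread of the 8 genes in that group. The PBS group spanned 31.8 through 42.3 to 51.0 CPM, and the RGLS4326 group ran from 29.5 through 37.3 to 40.3 CPM. The PBS and wild-type ranges overlapped, with 5 of 12 PBS mice above every wild-type mouse. The log2 fold change was 0.32 (SE 0.11, edgeR adjusted p = 0.00878) for PBS against wild type, -0.18 (SE 0.078, adjusted p = 0.102) for RGLS4326 against PBS and 0.15 (SE 0.11, adjusted p = 0.227) for RGLS4326 against wild type.

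The disease call of Pax2 rested on wild-type mice 3 and 4, the most alike pair. Without mouse 3 it was 0.24 (adjusted p = 0.0527), without mouse 4 it was 0.24 (adjusted p = 0.0539), and with both counted as 1 sample it was 0.24 (adjusted p = 0.0533). Without wild-type mouse 2, the highest, RGLS4326 against wild type was 0.27 and called (adjusted p = 0.0267). Pax2 relative to the principal cell sum averaged -4.31 ± 0.19 in wild type (n = 5), -5.56 ± 0.23 in PBS mice (n = 12) and -5.26 ± 0.28 in RGLS4326 mice (n = 14), as log2 values with SDs. The highest treated value, -4.43, was that of mouse 9. Relative to those markers Pax2 was thus lower on average in both Pcy groups than in wild type.

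Pax8 (chr2:24420560-24475599, minus strand), a paired box factor of nephron epithelium, measured 103, 124, 109, 107 and 109 CPM in wild type. PBS mice ran from 111 through 138 to 156 CPM and RGLS4326 mice from 109 through 129 to 152 CPM. Of the treated mice 13 of 14 lay above every wild-type mouse, as did 8 of 12 PBS mice. The log2 fold change was 0.30 (SE 0.078, edgeR adjusted p = 0.00115) with disease and 0.28 (SE 0.076, adjusted p = 0.00216) for RGLS4326 against wild type. Between the Pcy groups it was -0.017 (SE 0.056, adjusted p = 0.846), the smallest treatment difference of the 8.

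Emx1 (chr6:85187438-85204462, plus strand), a homeobox factor best known from the cerebral cortex, measured 42.0, 40.6, 43.6, 48.6 and 36.4 CPM in wild type. With PBS it ran from 31.8 through 38.1 to 45.5 CPM and RGLS4326 mice from 35.2 through 41.8 to 46.8 CPM. Its log2 fold changes were -0.16 (SE 0.074, edgeR adjusted p = 0.0570) with disease, 0.14 (SE 0.055, adjusted p = 0.0646) with treatment and -0.013 (SE 0.073, adjusted p = 0.888) for RGLS4326 against wild type, none of them called. Tfcp2l1 (chr1:118627945-118685168, plus strand), a grainyhead-like factor that patterns collecting duct cells, measured 491, 462, 506, 529 and 417 CPM in wild type. Those given PBS ran from 398 through 516 to 550 CPM and RGLS4326 mice from 397 through 465 to 521 CPM. Its log2 fold changes were 0.045 (SE 0.066, adjusted p = 0.548), -0.10 (SE 0.049, adjusted p = 0.118) and -0.060 (SE 0.065, adjusted p = 0.423) in the same order, so this abundant collecting duct gene was not called while Gata3 was. Tfcp2l1 over summed intercalated cell markers averaged 0.48 ± 0.16 in wild type (n = 5), 0.57 ± 0.17 in PBS mice (n = 12) and 0.50 ± 0.12 in RGLS4326 mice (n = 14), as log2 values with SDs.

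**Figure D2:**
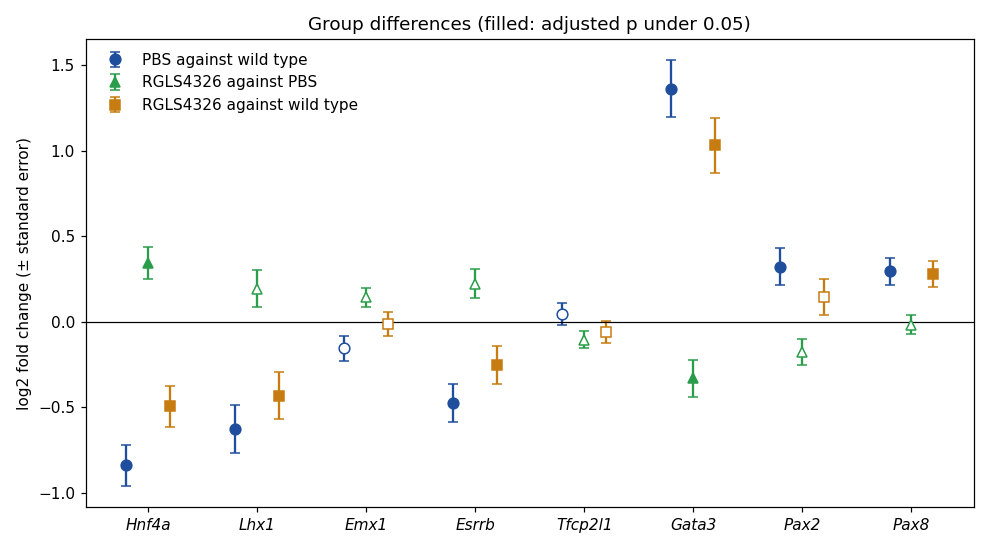
Log2 fold change (vertical axis, with standard errors) of each transcription factor for PBS against wild type (circles), RGLS4326 against PBS (triangles) and RGLS4326 against wild type (squares). Filled symbols mark adjusted p under 0.05, with 6, 2 and 5 filled, and Gata3 reaches 1.37 with disease while Hnf4a stands at -0.84.

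Within an index series, where 4 PBS mice met 4 or 5 treated mice, the treatment difference was called by edgeR for 0 of all tested genes, and so for 0 of the 8, which says nothing about them in particular. In series 1, 2 and 3 the log2 fold change of Hnf4a was 0.11, 0.39 and 0.48, with edgeR adjusted p of 1.0, 0.238 and 0.188. For Gata3 it was -0.11, -0.43 and -0.42, with adjusted p of 1.0, 0.243 and 0.201. Each of these kept the direction seen over all mice. With the series as a covariate the values were 0.34 for Hnf4a (adjusted p = 0.0249) and -0.33 for Gata3 (adjusted p = 0.0388). Pax2 was 0.049, -0.16 and -0.38 in the series, and Emx1 was -0.0059, 0.14 and 0.26, so the directions of these uncalled genes varied.

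**Figure D3:**
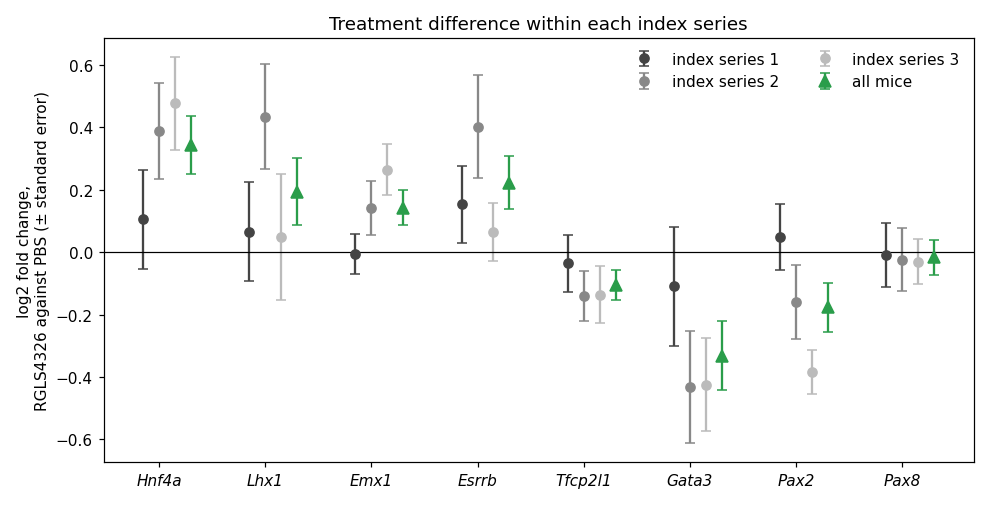
Log2 fold change (vertical axis, with standard errors) for RGLS4326 against PBS in each of the 3 index series (circles) and over all mice (triangles). Hnf4a lies above 0 and Gata3 below 0 in each series, with the smallest size, 0.11 and -0.11, in series 1.

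Some of the 8 genes also varied together among mice of the same group. Relations were computed on log2(CPM + 0.5) within the PBS and the RGLS4326 mice, between the 28 pairs of genes and between each gene and Lcn2, 72 in all, with 2-sided permutation tests of 100000 resamples and Benjamini-Hochberg adjustment. In PBS mice 11 of 36 were called and in RGLS4326 mice 10 of 36, and without mouse 9, with the same adjustment over all 72, 9 and 7. Tfcp2l1 had no called relation in either group over all mice, and Esrrb had none in PBS mice. Each index series held too few mice for a value of its own, and with the series means removed, an alternative chosen after the data were seen, 5 and 7 were called. Because mouse 9 lay far from the other treated mice in Lcn2, values in treated mice are given over the remaining 13.

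Among PBS mice, Lcn2 and Gata3 varied together, with a Pearson r of 0.93 (permutation p = 2e-05, adjusted p = 0.00048) and a Spearman rho of 0.96 (permutation p = 2e-05) over 12 mice. Without the pair of mice farthest from the median of Lcn2, r was 0.94. Lcn2 and Pax8 had r of 0.93 (permutation p = 4e-05, adjusted p = 0.000576) and rho of 0.96 (permutation p = 2e-05), and r of 0.91 without that pair of mice. Hnf4a went the other way, with r of -0.81 against Lcn2 (permutation p = 0.00159, adjusted p = 0.00954), rho of -0.81 (permutation p = 0.00209) and r of -0.78 without the pair. With series means removed these 3 relations were 0.92, 0.92 and -0.85, with adjusted permutation p of 0.0106, 0.0106 and 0.0376. PBS mice with more Lcn2 thus had more Gata3 and Pax8 and less Hnf4a, and mouse 10, the highest in Lcn2, was also the highest in Gata3 and the lowest in Hnf4a.

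Among treated mice without mouse 9, Lcn2 and Gata3 had r of 0.88 (permutation p = 0.0002, adjusted p = 0.00288), rho of 0.77 (permutation p = 0.00279) and r of 0.92 without the pair of mice farthest from the median. For Lcn2 and Hnf4a r was -0.88 (permutation p = 0.00012, adjusted p = 0.00216), rho -0.90 (permutation p = 0.00013) and r without the pair -0.88. Esrrb against Lcn2 gave r of -0.79 (permutation p = 0.00164, adjusted p = 0.0131), rho of -0.83 (permutation p = 0.00069) and r of -0.82 without the pair. In PBS mice the same relation of Esrrb was -0.32 (permutation p = 0.315, adjusted p = 0.472), with rho of -0.40 (permutation p = 0.202).

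Pax8 and Lcn2, tightly related in PBS mice, gave r of -0.16 (permutation p = 0.592, adjusted p = 0.722) and rho of -0.093 (permutation p = 0.763) over the 13 treated mice. With mouse 9 included r was 0.55 (permutation p = 0.0588, adjusted p = 0.141), so that 1 mouse set the sign of the value. Pax2 and Pax8 had r of 0.75 in PBS mice (permutation p = 0.00643, adjusted p = 0.0270), rho of 0.65 (permutation p = 0.0248) and r of 0.63 without the pair of mice farthest from the median of Pax2. In treated mice without mouse 9 their r was -0.64 (permutation p = 0.0125, adjusted p = 0.050), rho -0.64 (permutation p = 0.0223) and r without the pair -0.55, which was not called. Over all 14 treated mice r was -0.67 (permutation p = 0.00957, adjusted p = 0.0363). With the series means removed, neither relation over all mice of a group was called, with adjusted permutation p of 0.163 for PBS and 0.11 for RGLS4326. Differences in these relations between PBS and RGLS4326 mice were not tested.

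**Figure D4:**
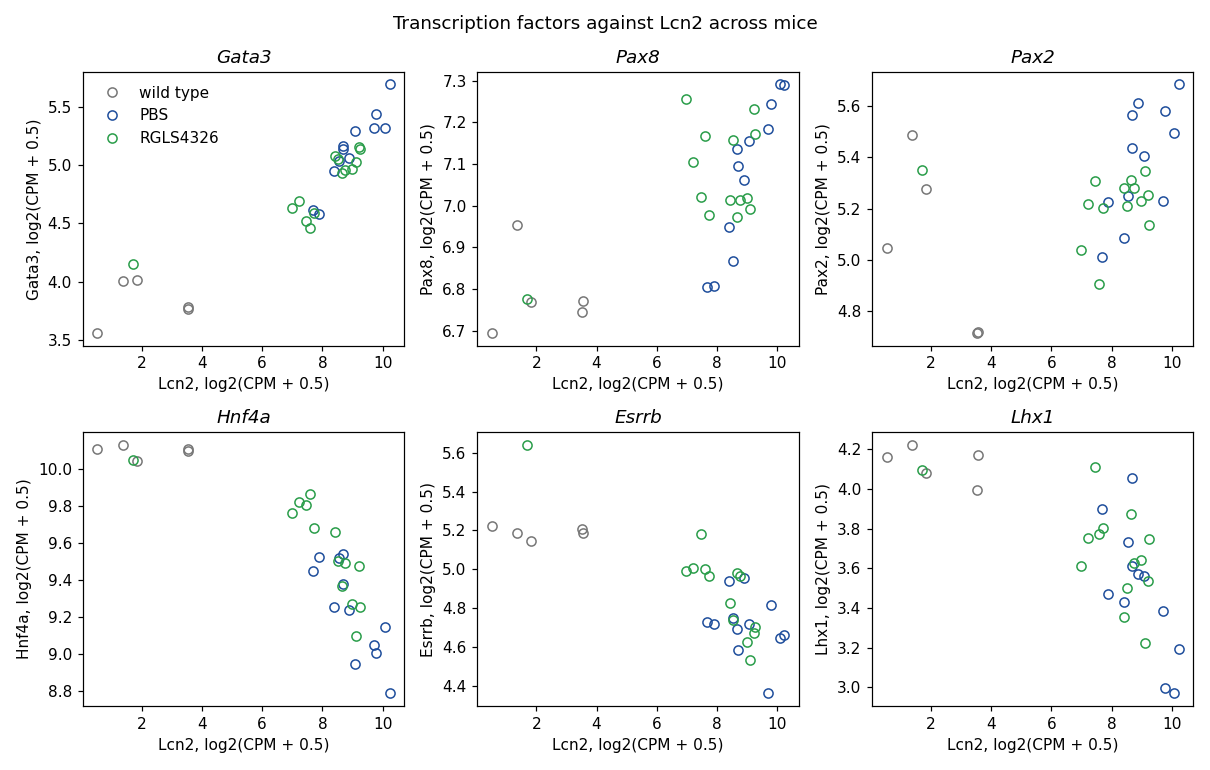
Log2(CPM + 0.5) of 6 transcription factors (vertical axes) against that of Lcn2 (horizontal axes), one point per mouse, by group. Gata3 goes up and Hnf4a goes down with Lcn2 among PBS mice (r of 0.93 and -0.81), Pax8 goes up with it among PBS mice (0.93), and 1 RGLS4326 mouse lies among wild type on the horizontal axes.

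The genes most like each member were sought among 13784 genes averaging 1 CPM or more, by Pearson r over the 31 mice with group means removed, as a description. Hnf4a was most like C2cd2l (r of 0.95) and Xylb (0.93), and Gata3 most like Elf3 (0.94), an epithelial factor of the collecting duct list below, and Susd1 (0.93). Tfcp2l1 was most like Scnn1a (0.76), a subunit of the epithelial sodium channel, and Bag2 (0.69). Emx1 was most like Atp6v1e1, a subunit of the proton pump, and Spr (0.79 each). Pax2 had Tiam1 (0.87) and Col4a6 (0.86), Pax8 had Il18bp and Steap1 (0.77 each), Lhx1 had Trappc8 (0.89) and Trpm7 (0.88), and Esrrb had Trp53bp2 (0.85) and Sft2d2 (0.83). The Esrrb values leaned on mouse 9, with r of 0.73 and 0.68 without it, and their Spearman rho over all mice was 0.67 each. These points share library, depth and group.

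Other nephron transcription factors gave the setting of the 8. Of 36 in 5 lists, 34 were tested, and Six2 and Eya1, progenitor factors at or near 0 in these kidneys, were not. In PBS mice 16 of 34 were called higher and 13 lower than in wild type, compared with 37.7% and 36.6% of all tested genes. All 6 of the proximal tubule list were lower, from Ppara, a regulator of fatty acid oxidation, at -1.50 (edgeR adjusted p = 4.69e-08) to Rxra, the partner of many nuclear receptors, at -0.51 (adjusted p = 1.09e-06), the same direction as Hnf4a. In the collecting duct list 8 of 10 were higher, up to Elf3 at 2.18 (adjusted p = 2.50e-07), the same direction as Gata3, and 1 was lower, Sim1 at -0.56 (adjusted p = 0.00249). The loop and distal list was split, with 2 of 9 higher, Tfap2a reaching 1.51 (adjusted p = 9.91e-07), and 4 lower, Esrrg reaching -0.93 (adjusted p = 7.29e-07). Podocyte factors had 4 of 5 higher, from Foxc2 at 0.86 (adjusted p = 0.000165) to Tcf21, also a stromal gene, at 1.29 (adjusted p = 4.16e-06).
Summed podocyte markers meanwhile ran from 175 to 310 CPM in wild type and from 195 to 347 CPM with PBS, while summed stromal markers ran from 112 to 139 CPM and from 224 to 450 CPM. The progenitor list had 2 of 4 higher, Hoxa11 reaching 1.25 (adjusted p = 1.34e-05), and 2 lower, Osr1 reaching -0.83 (adjusted p = 0.0203). Osr1 was near the floor, with a mean of 0.75 CPM in wild type and 0.43 CPM in PBS mice.

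After RGLS4326, 3 of these 34 were called higher and 4 lower than after PBS, compared with 9.15% and 6.66% of all tested genes. Nr1h4, the bile acid receptor of the proximal list, was higher by a log2 fold change of 0.63 (edgeR adjusted p = 0.0101) and Rxra by 0.17 (adjusted p = 0.0487). Irx3, of the loop and distal list, was higher by 0.32 (adjusted p = 0.0148). The lower genes all belonged to the collecting duct list. They were Grhl2 at -0.39 (adjusted p = 0.0171), Ehf at -0.30 (adjusted p = 0.0224), Dmrt2 at -0.48 (adjusted p = 0.0238) and Hoxb7 at -0.24 (adjusted p = 0.0256). Without mouse 9, 2 were higher and the same 4 lower, compared with 4.66% and 3.48% of all genes, and Rxra was no longer called. Podocyte and progenitor factors had 0 calls. Compared with wild type, treated mice had 14 higher and 13 lower, where the shares over all genes were 32.5% and 32.4%.

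**Figure D5:**
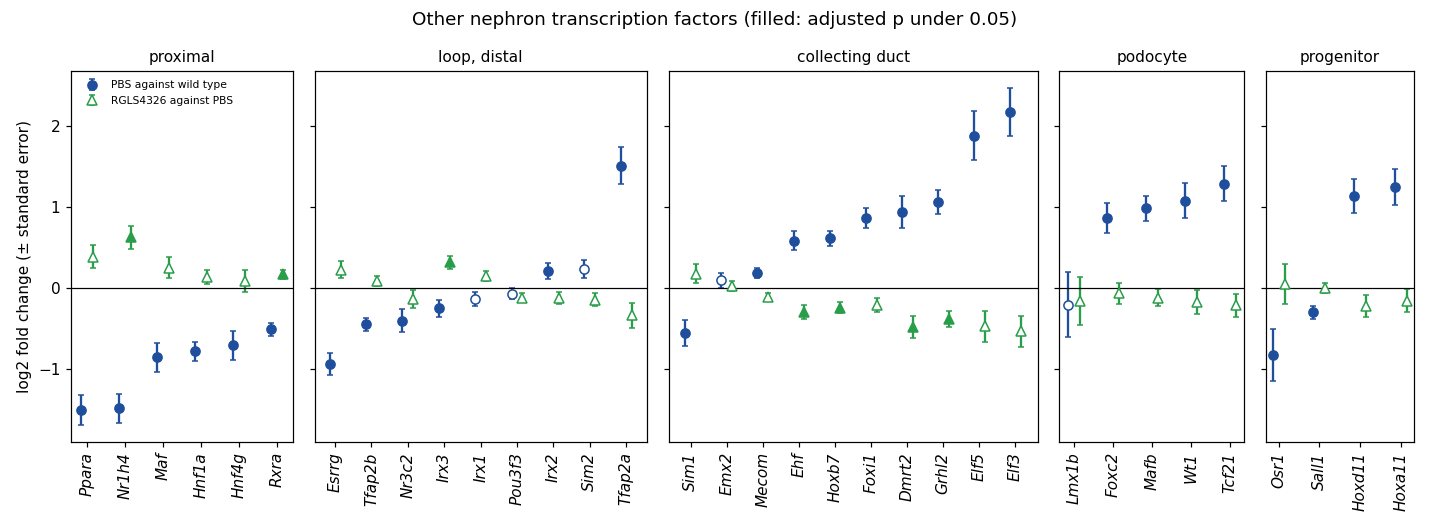
Log2 fold change (vertical axis, with standard errors) of 34 other nephron transcription factors in 5 lists, for PBS against wild type (circles) and RGLS4326 against PBS (triangles), filled where adjusted p was under 0.05. All 6 proximal factors lie below 0 with disease, from -1.50 to -0.51, and the 4 filled triangles below 0 are all in the collecting duct list.

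Injury markers, Lcn2 among them, were called higher in 8 of 8 cases in PBS mice against wild type, compared with 37.7% of all genes, and 0 of 8 were called after RGLS4326 by edgeR, compared with 15.8%. Lcn2 itself had a log2 fold change of 6.68 (adjusted p = 7.24e-08) with disease and -0.81 (adjusted p = 0.148) with treatment, the latter with an unadjusted p of 0.0576. Without mouse 9 the treatment value was -0.70 (edgeR adjusted p = 0.129). Mouse 9, near wild type in Lcn2, lay within the wild-type range for Hnf4a at 1057 CPM, Pax2, Pax8, Lhx1, Emx1 and Tfcp2l1, and outside it for Gata3 at 17.3 and Esrrb at 49.4 CPM. It was the lowest treated mouse for Pax8 and Gata3 and the highest for Hnf4a, Pax2 and Esrrb.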

How the data were processed

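Kidney RNA of 31 mice had been sequenced as 75 bp paired reads from stranded mRNA libraries. The authors deposited raw counts per gene, made with STAR on GRCm38 and HTSeq 0.6.1 after FastQC 0.11.2 and Trim Galore per the labels. The annotation and strand setting are not given in the sources used here. Reads not assigned to a gene, 26.9 to 31.1% of each library and mostly reads aligned to more than 1 place, were left out. Counts were filtered with filterByExpr, scaled by TMM and tested by quasi-likelihood in edgeR 4.0.16 (R 4.3.3), over 3 groups and 31 mice, after a check on simulated data. Alternatives included DESeq2 1.42.0. Replicate numbers were not treated as pairs in the main fit. The SD measures the spread between mice, and the p-values come from tests that take the mouse as the unit. The 8 genes and all lists were chosen with earlier results of these data known. Named genes were the 8, Lcn2, for each of the 5 other lists the largest and smallest called disease change and up to 4 genes called after treatment, from each marker list the gene of highest mean CPM, not scaled to length, and up to 2 more called genes of smallest p, and the 2 genes most alike each of the 8. 9230102O04Rik and 4930412O13Rik were added for their overlap with Gata3, and Six2 and Eya1 as untested. A few genes are not reported here and were left out of the lists.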

Additional observations from a re-analysis of the deposited data

Results flagged for a closer look

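Pax8 in wild-type mouse 2 was 124 CPM, while the other 4 wild-type mice lay between 103 and 109 CPM. Its gap to the nearest mouse took 0.72 of the group's whole range, above Dixon's critical value of 0.71 for 5 samples. Of the 8 genes tested in this way it was the only one flagged, and chance flags about 1 in 20 groups at this level. Groups of 12 and 14 mice were not tested.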

How the results depend on the processing

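Against wild type, 199 of 216 alternative values for PBS mice and 191 of 232 for RGLS4326 mice kept their direction and side of the threshold, as did 249 of 288 for RGLS4326 against PBS. The 6 genes called for PBS against wild type became 4 and 4 in index series 1 and 2 alone. Of all genes 51.9 and 45.5% were called there, in place of 74.3%. The 6 became 5 to 7 when single mice were left out, with Pax2 lost or Emx1 gained. The 2 called for RGLS4326 against PBS became 1 with no filter, 1 with those 2 groups only and 0 in each index series alone. They became 4 with DESeq2 (which added Emx1 and Esrrb) and 1 to 4 when single mice were left out. Of all tested genes 1720 of 19698 were called with no filter, 1480 of 14687 with 2 groups only and 0 in each series alone. Without PBS mouse 10 it was 618 of 15161, and without treated mouse 2 it was 3999 of 15162. The 5 called for RGLS4326 against wild type became 4 and 0 in series 1 and 2 alone. Of all genes 47.3 and 2.58% were called there, in place of 64.9%. With no filter, with 2 groups only and with DESeq2 4 were called, and 4 or 5 when single mice were left out. Of all tested genes 10122 of 19698 were called with no filter and 9762 of 14886 with 2 groups only. Fits within a series use fewer mice and call fewer genes in all. Series 3 holds 1 wild-type mouse, assumed to vary like the other groups, so its calls against wild type are not listed here. With the replicate number as a replicate block, 0 of the 8 genes and 303 of all 15185 tested genes (2402 without the block) were called for RGLS4326 against PBS, with adjusted p of 0.0723 for Hnf4a and 0.0945 for Gata3. PBS and RGLS4326 mice of the same number had a mean correlation of -0.0751 over 12 pairs, from -0.4509 to 0.4825, 4 of them over 0.1. Same-numbered mice of these groups fell in the same index series except for number 9, so the block also takes up the series. Whether they shared anything else is not known. The 21 relations called became 12 with index series means removed, 16 by Spearman rho and 16 without mouse 9. Some signs reversed, among the called differences only that of Pax2 for PBS against wild type. For PBS against wild type they were Pax2 at -0.0602 and Tfcp2l1 at -0.0294 in series 1, and Tfcp2l1 at -0.0012 to 0.0814 with single mice left out. For RGLS4326 against PBS they were Pax2 at 0.0486 and Emx1 at -0.0059 in series 1, and Pax8 at -0.0395 to 0.0046 with single mice left out. For RGLS4326 against wild type they were Pax2 at -0.0116 in series 1 and -0.055 in series 3, Emx1 at 0.0014 with 2 groups only, 0.0228 with wild-type mice 3 and 4 as 1 sample, 0.2477 in series 3 and -0.0585 to 0.0437 with single mice left out, and Tfcp2l1 at 0.1682 in series 3. The cause of these changes was not tested. Counts behind the 8 genes were lowest for Lhx1, at 173 in 1 mouse.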

Other observations

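Markers of other segments and cell types, from lists chosen with earlier results of these data known, were measured in the same kidneys. Distal convoluted and connecting tubule markers were called lower in 4 of 5 cases in PBS mice against wild type, a comparison in which 37.7% of all genes were called higher and 36.6% lower. Pvalb, a calcium-binding protein of the early distal convoluted tubule, had the largest log2 fold change of the list, -3.83 (edgeR adjusted p = 1.07e-07), and Slc12a3, the sodium-chloride cotransporter, of -0.68 (adjusted p = 6.64e-06). After RGLS4326, 3 of 5 were called higher than after PBS, compared with 9.15% of all genes, and 0 of 5 without mouse 9, compared with 4.66% of all genes. Pvalb was at 1.27 (adjusted p = 0.0400) over all mice and at 0.42 (adjusted p = 0.151) without mouse 9. Thick ascending limb markers had 1 of 7 higher and 3 lower with disease, and Umod, the most plentiful urinary protein, had a log2 fold change of -0.16 (adjusted p = 0.0595). Intercalated cell markers had 2 of 6 higher and 2 lower with disease and 1 lower after treatment, where 6.66% of all genes were called lower. Endothelial markers had 1 of 4 lower and podocyte markers 1 of 4 higher with disease, and stromal markers had 3 of 5 higher and 1 lower. Col1a1, a fibrillar collagen of stromal cells, had a log2 fold change of 3.37 (adjusted p = 8.41e-09). Proximal tubule markers had 4 of 10 called higher after RGLS4326, and 1 of 10 without mouse 9.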
